A study of Mus musculus with 2 samples.

Results

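The genes described here are 5 of the 32246 gene symbols counted in 2 single-cell libraries of mouse subcutaneous fat: Sult1e1, Akr1c18, Esr1, Pgr and Prlr. They handle or sense steroid hormones and prolactin. They were selected on their UMI counts in these same libraries, namely on how the counts differed between the libraries, between progenitor states and in their concentration in few cells, so the values below describe them and test nothing. The deposited tables count UMIs (unique molecular identifiers, one tag per captured RNA molecule) and come from droplet libraries that read the 3′ ends of RNAs. One library was made from WT mice and the other from Paqr4 transgenic mice. Each held CD45-negative cells of the stromal vascular fraction, which is the tissue left after adipocytes are removed, sorted by flow cytometry. The labels give no age, sex or strain, and they name neither the promoter of the transgene nor the cells in which it is active. The series text speaks of pooled cells from 3 mice without saying whether this was per genotype. With 1 library per genotype no difference between genotypes can be tested, and every interval below is a 95% interval for counting error only.

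SULT1E1 is the sulfotransferase that attaches sulfate to oestrogens, which then no longer bind their receptor. AKR1C18 is an aldo-keto reductase that inactivates progesterone. ESR1 and PGR are the nuclear receptors through which oestrogens and progesterone act on transcription, and Pgr is itself a classic oestrogen-induced gene. PRLR is the cell surface receptor for prolactin and signals through JAK2 and STAT5. In fat, stromal cells including adipocyte progenitors are known to carry oestrogen receptor.

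A barcode counted as a cell if it had at least 1000 UMIs and 500 genes, with no more than 10% of UMIs mitochondrial. This gave 1328 WT and 1521 transgenic cells with median depths of 21612.5 and 18711 UMIs. Progenitors, with Pdgfra, Dcn and Col1a1 in every cluster, numbered 1127 and 1360 and held 25647451 and 26348655 UMIs. They fell into 6 clusters, whose state names rest on fixed marker lists: a Dpp4-like cluster (1), Icam1-like clusters 0 and 3, F3-like clusters 5 and 6, and cluster 2, which met no list and was led by Il6, Procr and Adamts4. Clusters 3 and 5 met both the Icam1-like and the F3-like list, with 5 and 4 markers in cluster 3 and 3 and 6 in cluster 5, and were named by the list with more. Cluster 6 had 3 F3-like markers, the fewest that gave a name. Levels are given as UPM, the UMIs of a gene in 1000000 UMIs of the group of cells named. Paqr4 itself stood at 7.88 UPM (6.83 to 9.04) in the WT progenitors, against 9.49 UPM (8.35 to 10.7) in those of the transgenic library. At a log2 ratio of 0.27 (−0.0047 to 0.54), a higher Paqr4 level was not detectable in these counts. The labels do not say whether RNA of the transgene carries the 3′ end that is counted as Paqr4. Xist had a UMI in 94.1% of WT and 0.221% of transgenic progenitors, and a Y-linked gene in 2.04% and 94.0%. The WT library thus carried female and the transgenic library male transcripts. Genotype and sex cannot be told apart in any value that follows. No cell barcode was shared by the libraries. In progenitors, the 7 B or plasma cell markers summed to 4.87 UPM for WT cells but 140 UPM for transgenic cells, and their part in the differences below was not tested.

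The promoters of Sult1e1 and Akr1c18 are shown because these genes had the highest and the lowest ratio among the 5 for which a ratio could be read. A Prlr start is shown because it alone among the 3 listed for that gene held any of the motifs searched. Each line gives the 250 bases upstream of a RefSeq transcription start (GRCm38.p6), 5′ to 3′ on the strand of the gene. Sult1e1 is at chr5:87591612-87591861 on the minus strand, Akr1c18 at chr13:4150647-4150896 on the minus strand, and Prlr at chr15:10223656-10223905 on the plus strand. Capitals mark matches to the motifs described after the sequences.
Sult1e1: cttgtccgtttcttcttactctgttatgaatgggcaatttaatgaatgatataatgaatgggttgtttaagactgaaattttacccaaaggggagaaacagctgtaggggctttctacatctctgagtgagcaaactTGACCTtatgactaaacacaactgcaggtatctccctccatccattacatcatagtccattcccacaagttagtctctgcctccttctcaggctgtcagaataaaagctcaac
Akr1c18: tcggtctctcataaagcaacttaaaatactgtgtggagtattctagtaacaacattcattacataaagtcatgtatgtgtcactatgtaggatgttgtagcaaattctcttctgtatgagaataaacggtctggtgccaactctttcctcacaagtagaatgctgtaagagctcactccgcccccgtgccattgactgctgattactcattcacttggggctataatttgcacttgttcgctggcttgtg
Prlr: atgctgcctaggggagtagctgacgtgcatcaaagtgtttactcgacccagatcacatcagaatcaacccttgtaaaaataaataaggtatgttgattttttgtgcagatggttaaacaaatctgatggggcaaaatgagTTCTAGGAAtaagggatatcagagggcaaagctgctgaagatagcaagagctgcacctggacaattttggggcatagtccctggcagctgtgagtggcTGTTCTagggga
On both strands, 5 motifs were searched. These were AGGTCA (the core bound by nuclear receptors including ESR1), GGTCANNNTGACC (the full oestrogen response element, which overlaps AGGTCA where an A precedes it), AGAACA (the core bound by the glucocorticoid receptor), TTCNNNGAA (the site of STAT5) and TATAAA. In Sult1e1 the match was TGACCT, which is AGGTCA read on the other strand, and it began 113 bases upstream of the start. AGGTCA occurs in 14.02% of all 32851 listed promoters of this length. Akr1c18 held none of the motifs in this window. In Prlr, TTCTAGGAA matched the STAT5 motif 110 bases upstream and TGTTCT, the reverse complement of AGAACA, lay 12 bases upstream. STAT5 motifs occur in 7.02% and AGAACA in 16.1% of promoters. Of the 2 listed Esr1 starts, 1 held a STAT5 motif, and the Pgr start held TTTATA, the reverse complement of TATAAA, which 12.4% of promoters hold. GGTCANNNTGACC, present in 0.0639% of promoters, was in none of these windows. A match is a string of letters, and the 3′ counts do not show which start was used.

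In GRCm38, Sult1e1 (ENSMUSG00000029272) spans chr5:87575969-87591594 on the minus strand. It had 92 UMIs in WT progenitors, 3.59 UPM (2.89 to 4.40), and 2412 UMIs in transgenic progenitors, 91.5 UPM (87.9 to 95.3). This is a 25.5-fold higher level in transgenic, a log2 ratio of 4.67 (4.37 to 4.99). The gene was seen in 14 of 1127 WT progenitors (1.24%, 0.681 to 2.08), whereas 241 of 1360 transgenic progenitors had it (17.7%, 15.7 to 19.9). With each cell thinned to 5000 UMIs, which left out 25 WT and 47 transgenic cells, the shares were 0.454% and 13.6%. Both the level and the share were thus higher in the transgenic library. Endothelial cells, shallower at medians of 9857 and 7584 UMIs, held no Sult1e1 UMI in 95 WT and 79 transgenic cells. At 3 cells of the total, this allows shares of cells with a UMI of up to 3.16% and 3.80%. Sult1e1 was also seen in clusters not named progenitors. An unnamed cluster led by haemoglobin genes had it in 9 of 30 transgenic cells, at 87.9 UPM (67.4 to 113), and in 0 of 34 WT cells. This cluster had 9 markers of a class list on, as many as each progenitor cluster, and its leading genes left it unnamed. Whether its cells are progenitors was not tested. Of 10 transgenic mesothelial cells, 1 held 12 UMIs. Barcodes with 50 or fewer UMIs, which sample RNA free in the suspension, held Sult1e1 at 0.301 UPM in the WT library, against 67.2 UPM in the transgenic library.

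In the transgenic library Sult1e1 was found in all 6 progenitor clusters. Cluster 6, the F3-like cluster led by Itgbl1, Piezo2 and Tgfbi, was highest at 353 UPM (327 to 381), with a UMI in 65 of its 112 cells (58.0%, 48.3 to 67.3). Next came F3-like cluster 5 at 186 UPM (163 to 212), in 21 of 84 cells. Cluster 2 at 91.6 UPM and cluster 0 at 80.0 UPM had overlapping intervals, as did the Dpp4-like cluster 1 at 45.2 UPM and cluster 3 at 39.7 UPM. Shares in those 4 clusters ran from 11.3% to 16.5%. The levels of clusters 1 and 3 were below the 67.2 UPM of free RNA in the transgenic library, and 5 cells held 56.4% and 50% of their UMIs. Cluster 6 held 27.3% of the transgenic Sult1e1 UMIs in 112 of 1360 progenitors. Thinned to 5000 UMIs per cell, the shares of cells in clusters 6 and 5 were 50.9% and 23.1%, against 8.20% to 12.4% in the others. Without the 5 genes in the clustering, the cluster sharing most cells with cluster 6 stood at 324 UPM against 74.1 UPM in the other progenitors.

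**Figure D1:**
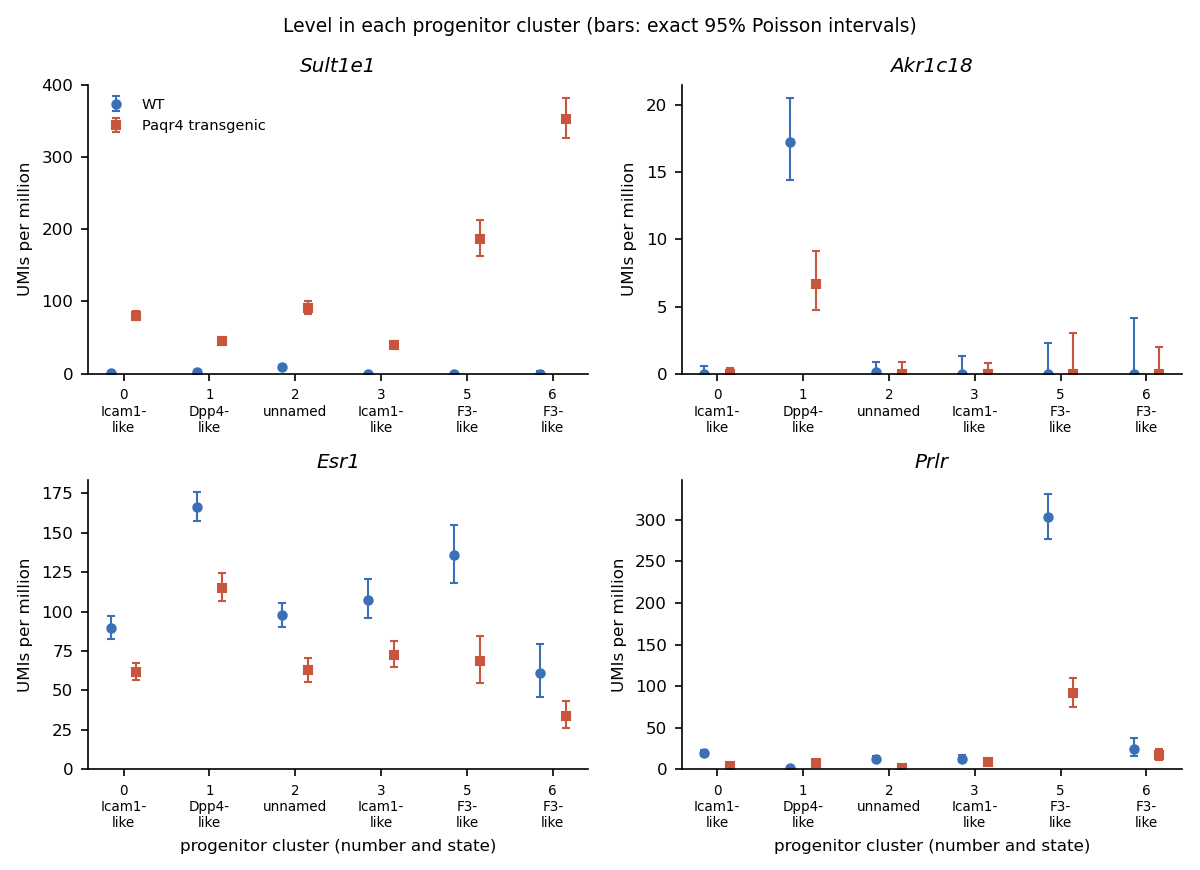
Level in UPM of Sult1e1, Akr1c18, Esr1 and Prlr in each progenitor cluster (x axis), in WT (circles) and Paqr4 transgenic (squares), with exact 95% Poisson intervals; each panel has its own linear axis. Transgenic Sult1e1 is highest in cluster 6 at 353, Akr1c18 is seen almost only in cluster 1, Esr1 is lower in the transgenic library in all 6 clusters, and WT Prlr is highest in cluster 5 at 303.

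WT Sult1e1 was nearly confined to a few cells. No UMI was found in clusters 3, 5 and 6, of which 5 and 6 had the highest transgenic levels. With the WT count in a cluster set to the 3 UMIs that a count of 0 allows, the transgenic level was 104-fold higher in cluster 6, 98.8-fold in cluster 5 and 36.0-fold in cluster 3. In log2 these are 6.70, 6.63 and 5.17. The counting intervals, taken from the WT counts of 0, had lower limits of 6.40, 6.32 and 4.86. In cluster 0 the level went from 1.25 to 80.0 UPM (log2 5.999, 5.01 to 7.22), in cluster 1 from 2.41 to 45.2 UPM (4.23, 3.54 to 5.01) and in cluster 2 from 10.0 to 91.6 UPM (3.19, 2.81 to 3.59). The smallest ratio was therefore in the cluster where WT was highest, and there 1 cell held most of the WT UMIs. Leaving out the 5 highest cells of each library, cluster 2 had 0 WT and 231 transgenic UMIs. With WT set to 3 UMIs, its log2 ratio was then 6.93, no longer the smallest, so the order of the clusters rested on few cells.

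The highest WT cell, in cluster 2, had 50 Sult1e1 UMIs among 20348, and 4 further WT cells had 11, 11, 8 and 3. The other 9 positive cells had 1 UMI each. The 5 highest cells held 90.2% of all WT progenitor UMIs of Sult1e1. Among 2859 genes with 46 to 184 UMIs in WT progenitors, the median share held by 5 cells was 14.2%, and 0.804% of the genes reached the Sult1e1 share, which was itself a reason for choosing the gene. In the transgenic library the 5 highest cells held 12.6%, 38 cells were needed for 50% of the UMIs, and the highest cell had 71. The positive transgenic cells had a median of 6 UMIs, against 1 in WT. Without the 5 highest cells of each library, 9 WT UMIs and 2107 transgenic UMIs remained, a log2 ratio of 7.83 (6.90 to 8.96). All 14 positive WT cells carried Xist (12 to 61 UMIs) and no Y-linked UMI. None of the 241 positive transgenic cells carried Xist and 95.02% had a Y-linked UMI, so the WT positive cells bore the same sex transcripts as the rest of their library.

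**Figure D2:**
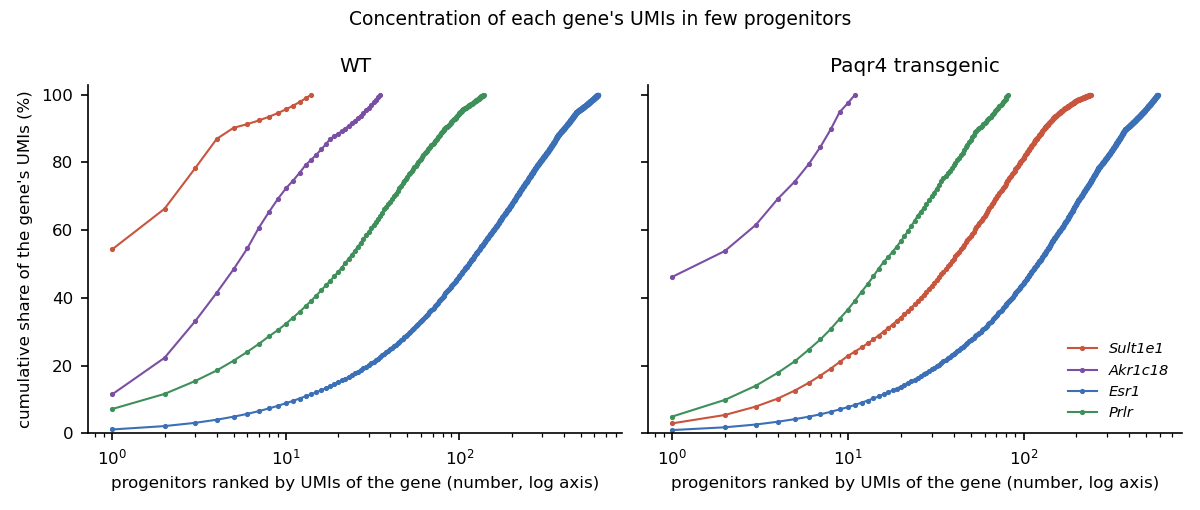
Cumulative share of each gene's progenitor UMIs (y axis, percent) over progenitors ranked by their UMIs of that gene (x axis, log scale), for WT (left) and Paqr4 transgenic (right). The 5 highest cells hold 90.2% of WT but 12.6% of transgenic Sult1e1 UMIs, while the Esr1 curves rise over far more cells in both.

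Akr1c18 (ENSMUSG00000021214) lies at chr13:4132615-4150654 on the minus strand. It was sparse in both libraries, with 130 UMIs in 35 WT progenitors (5.07 UPM, 4.23 to 6.02) and 39 UMIs in 11 transgenic ones (1.48 UPM, 1.05 to 2.02). The log2 ratio was −1.78 (−2.33 to −1.25). Of the 169 UMIs, 168 (99.4%) lay in the Dpp4-like cluster, whose cells are regarded as early, multipotent progenitors and are led here by Pi16. The median over 12089 genes was 24.5%, and 0.0165% of them, Akr1c18 and Mrgprg, reached that share. In clusters 0, 3, 5 and 6 no UMI was found in either library, and cluster 2 held 1 WT UMI.

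Within the Dpp4-like cluster, the WT level of Akr1c18 was 17.3 UPM (14.4 to 20.5) and the transgenic level 6.68 UPM (4.75 to 9.13), a log2 ratio of −1.37 (−1.92 to −0.84). A UMI was present in 34 of 294 cells (11.6%, 8.14 to 15.8) and in 11 of 260 (4.23%, 2.13 to 7.44). Few cells carried it even there: in WT the 5 highest held 48.8% of the cluster's UMIs, and in transgenic 74.4%. The transgenic cell with most had 18 of the 39. Leaving out the 5 highest cells of each library in this cluster gave 66 and 10 UMIs and a log2 ratio of −2.36 (−3.49 to −1.40). No endothelial cell held a UMI, and free RNA of the WT library held Akr1c18 at 2.41 UPM (1.04 to 4.74) and that of the transgenic library at 2.02 UPM (0.551 to 5.18), the latter on 4 UMIs and with an interval that includes the transgenic progenitor level. The Dpp4-like location held under every clustering tried: clusters given that name contained 91.5% to 99.2% of WT Akr1c18 UMIs, and 94.9% to 100% in transgenic. The last 500 bases of the annotated Akr1c18 transcripts shared no run of 50 bases with a transcript of another gene, so reads there would not be split with the other Akr1c genes.

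**Figure D3:**
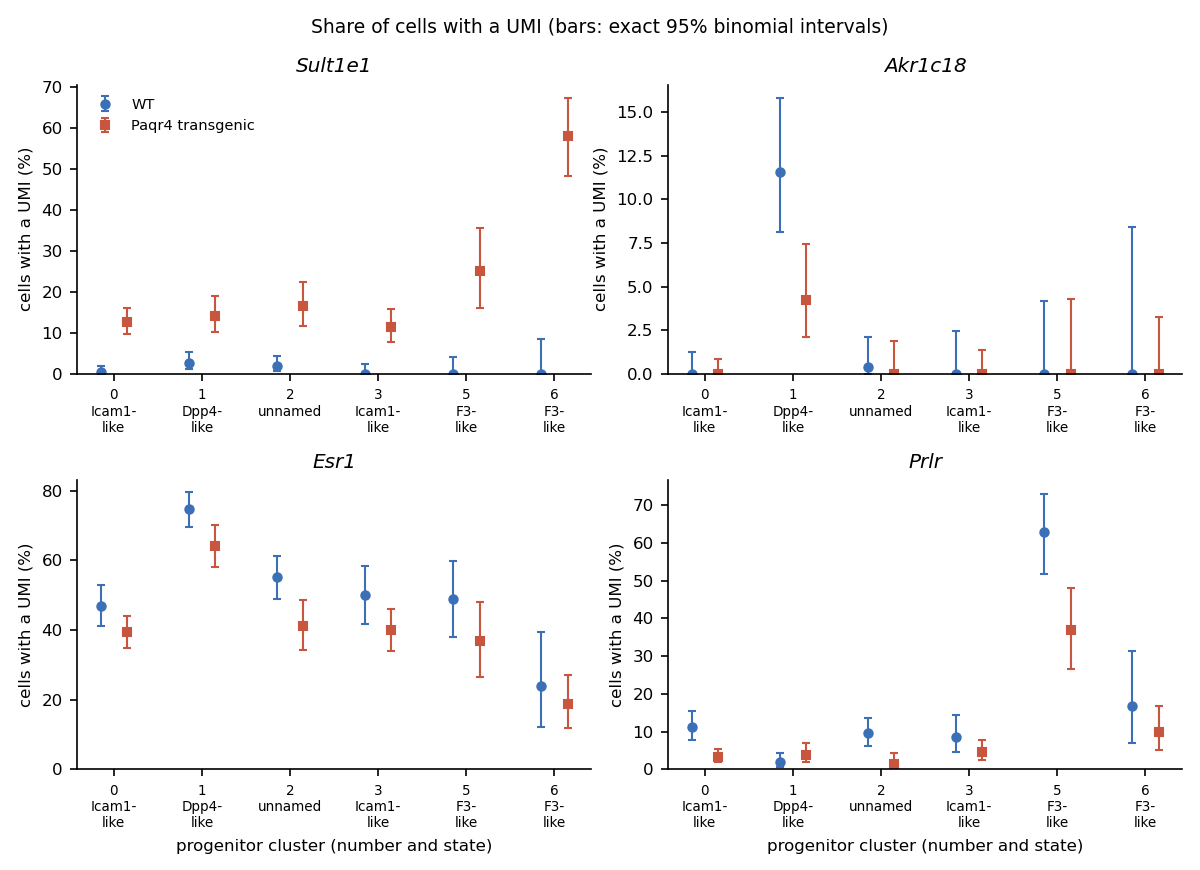
Percent of cells with at least 1 UMI of each gene (y axis) by progenitor cluster (x axis), WT as circles and Paqr4 transgenic as squares, with exact 95% binomial intervals. Sult1e1 reaches 58.0% of transgenic cells in cluster 6, and Esr1 has the broadest detection, up to 74.8% of WT cells in cluster 1.

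Esr1 (ENSMUSG00000019768, chr10:4611593-5005614, plus strand) was the most widely detected of the 5 genes. Its 3022 UMIs in WT progenitors gave 118 UPM (114 to 122), and 1950 UMIs in transgenic progenitors gave 74.0 UPM (70.8 to 77.4). The log2 ratio was −0.67 (−0.75 to −0.59), that is, the WT level was 1.59-fold the transgenic one. Of WT progenitors, 55.8% had a UMI (52.9 to 58.7), and of transgenic progenitors 42.6% (40.0 to 45.3), and after thinning in 32.1% and 23.7%. Endothelial cells carried one in 2 of 95 WT and 0 of 79 transgenic cells. Free RNA held 35.8 and 34.4 UPM.

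Among states, the Dpp4-like cluster had most Esr1 in both libraries, with a WT level of 166 UPM (157 to 176) and a transgenic level of 115 UPM (107 to 124), and with a UMI in 74.8% and 64.2% of cells. In WT it was followed by cluster 5 at 136 UPM, cluster 3 at 108 UPM, cluster 2 at 97.8 UPM and cluster 0 at 89.5 UPM, each overlapping the next in interval. In transgenic, clusters 3, 5, 2 and 0 lay between 62.0 and 72.7 UPM with overlapping intervals. Cluster 6, where transgenic Sult1e1 peaked, had least Esr1 in both, at 61.1 UPM (45.9 to 79.7) and 33.7 UPM (25.9 to 43.2). The transgenic level was below WT in all 6 clusters, with log2 ratios of −0.53 in clusters 0 and 1, −0.56 in cluster 3, −0.64 in cluster 2, −0.86 in cluster 6 and −0.99 in cluster 5. In cluster 6 the ratio rested on few cells, since without the 5 highest cells of each library 12 and 26 UMIs remained and it was −0.14 (−1.18 to 0.98). Outside the clusters named progenitors, 11 WT and 10 transgenic cells of the mesothelial cluster had 383 UPM (308 to 471) and 139 UPM (87.0 to 210). The 34 WT and 30 transgenic cells of the haemoglobin-led cluster had 138 UPM (113 to 166) and 25.5 UPM (15.1 to 40.3).

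Pgr (ENSMUSG00000031870, chr9:8899833-8968611, plus strand) was close to undetected. WT progenitors held 2 UMIs in 2 cells (0.0780 UPM, 0.00944 to 0.282) and transgenic progenitors 5 UMIs in 4 cells (0.190 UPM, 0.0616 to 0.443). The log2 ratio of 1.28 came with limits of −1.33 and 4.68, and a difference could not be detected from so few UMIs. Over all barcodes of the libraries, 4 and 7 UMIs were counted. After thinning no progenitor held one, which at 3 cells of the total allows shares of cells with a UMI of up to 0.272% and 0.228%.

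Prlr (ENSMUSG00000005268, chr15:10177238-10349180, plus strand) had 764 UMIs in WT progenitors, 29.8 UPM (27.7 to 32.0), and 263 in transgenic ones, 9.98 UPM (8.81 to 11.3). Its log2 ratio was −1.58 (−1.79 to −1.37). The share with a UMI was 12.2% in WT (10.4 to 14.3) and 6.03% in transgenic (4.82 to 7.43), and after thinning in 7.44% and 3.50%. No endothelial cell of either library held one. Free RNA of the WT library held Prlr at 9.63 UPM (6.59 to 13.6), that of the transgenic library at 7.08 UPM (3.87 to 11.9). For 2 of the annotated Prlr transcripts, 34.1% of the 50-base runs in the last 500 bases also occur in Gm21973, so reads from those ends may be lost or split.

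Prlr was concentrated in F3-like cluster 5, where it was the leading gene, so its high level there is part of what defines the cluster. WT cells there stood at 303 UPM (276 to 331) and transgenic cells at 91.5 UPM (75.3 to 110), with a UMI in 54 of 86 (62.8%) and 31 of 84 cells (36.9%). Of all progenitor UMIs of Prlr, cluster 5 held 63.1% in WT and 42.2% in transgenic. With the 5 genes left out of the clustering, the best-matching cluster was larger, with 177 WT and 310 transgenic cells, and held 57.7% and 63.9% of the UMIs at 133 and 31.2 UPM, against 14.5 and 4.54 UPM in the other progenitors. The F3-like name was less stable than the Dpp4-like one. With the 141 genes that differed by 2-fold left out of the clustering, Prlr among them, the only F3-like cluster held 3.01% of WT and 11.0% of transgenic Prlr UMIs, and its WT level of 24.5 UPM was below the 30.0 UPM of the other progenitors. In the transgenic library that cluster, of 114 cells, was the best match to cluster 6, not to cluster 5. These values thus follow the name and do not show how Prlr was spread over the other clusters. With each library clustered on its own, no WT cluster was named F3-like, and clusters not named progenitors were not matched to that list. Under the other settings, F3-like clusters held 43.3% to 75.6% of WT and 40.3% to 81.1% of transgenic Prlr UMIs. After cluster 5, WT levels were 24.9 UPM in cluster 6, 19.9 in cluster 0, 12.9 in cluster 3, 12.8 in cluster 2 and 1.87 in cluster 1. Mesothelial cells also carried Prlr, the WT cells at 159 UPM (112 to 219), the transgenic cells at 221 UPM (154 to 307). The haemoglobin-led cluster stood at 93.9 UPM in WT, where 1 cell held 64 of the 73 UMIs, and at 5.67 UPM in transgenic. In cluster 5, 5 of the 8 mesothelial markers were at 0 in each library, Msln among them, and all 8 summed to 170 and 138 UPM.

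The ratio of the libraries was not the same across states. It was −1.73 (−2.04 to −1.43) in cluster 5, −2.40 (−2.996 to −1.83) in cluster 0 and −3.16 (−4.65 to −1.98) in cluster 2. The transgenic levels in clusters 0 and 2, 3.77 and 1.43 UPM, were below the 7.08 UPM of free RNA. In cluster 2 the transgenic level rested on 6 UMIs in 3 cells. In clusters 3 and 6 the ratios of −0.56 and −0.54 had intervals that included 0. In the Dpp4-like cluster the direction was the opposite, from 14 UMIs (1.87 UPM) in WT to 42 UMIs (7.20 UPM) in transgenic, a log2 ratio of 1.94 (1.04 to 2.93). That transgenic level is close to the 7.08 UPM of free RNA. There the 5 highest cells held 92.9% of UMIs in WT and 83.3% in transgenic, and without them 1 and 7 UMIs remained. Clustering each library on its own changed the value over all progenitors to −0.95 (−1.17 to −0.73), because 38 of the 86 WT cells of cluster 5 and 39 of the 42 of cluster 6 then fell in clusters not named progenitors, and these held 266 and 22 of the Prlr UMIs.

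**Figure D4:**
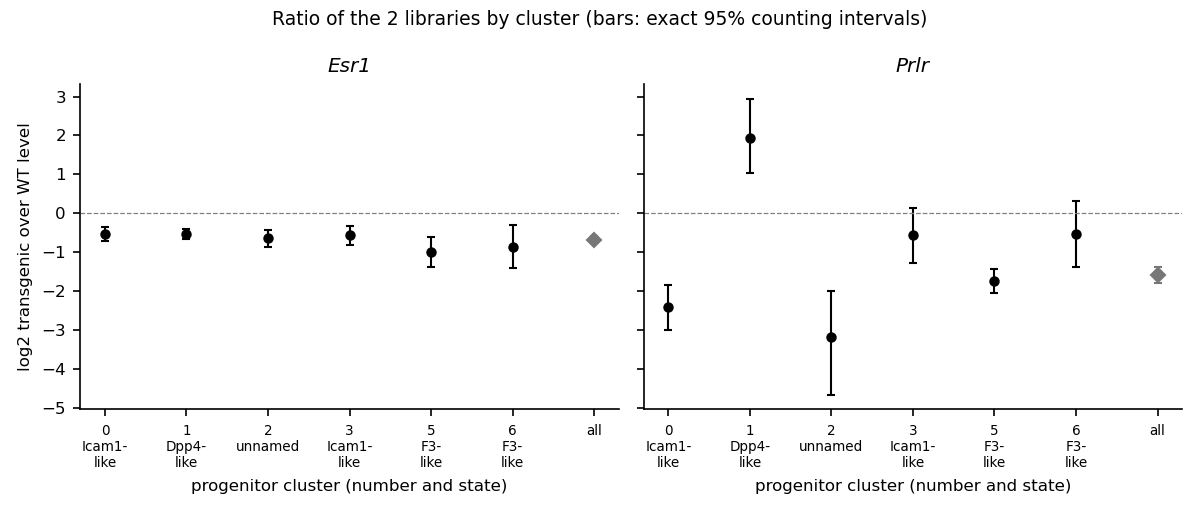
Log2 ratio of the transgenic to the WT level of Esr1 (left) and Prlr (right) in each progenitor cluster and in all progenitors (grey diamond), with exact 95% counting intervals; the dashed line marks equal levels. All 6 Esr1 ratios lie below 0, whereas Prlr runs from −3.16 in cluster 2, on 6 transgenic UMIs, to 1.94 in cluster 1.

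Cells positive for one gene were also read for the others. Of the 82 transgenic progenitors with Prlr, 28 (34.1%, 24.0 to 45.4) had a Sult1e1 UMI, against 213 of 1278 without Prlr (16.7%, 14.7 to 18.8), where the median depths were 18209 and 19397.5 UMIs. Within cluster 5 the shares were 11 of 31 (35.5%, 19.2 to 54.6) and 10 of 53 (18.9%, 9.44 to 32.0), with overlapping intervals. In WT no cell had both genes, but only 14 cells held Sult1e1, none of them in cluster 5. The interval for that share reached 23.2%, so an absence cannot be read from it. Esr1 was lower in transgenic cells with Sult1e1, at 52.7 UPM (46.3 to 59.7), than in those without, at 78.6 UPM (74.9 to 82.4). The direction was not the same in every cluster. In cluster 6 these values were 17.7 UPM (10.6 to 27.6) and 55.6 UPM (40.4 to 74.6), in cluster 0 40.2 and 65.3 UPM, in cluster 1 87.8 and 120 UPM and in cluster 3 53.7 and 75.1 UPM, whereas cells with Sult1e1 had the higher Esr1 level in cluster 2, at 70.6 and 61.0 UPM, and in cluster 5, at 78.1 and 64.5 UPM. The intervals overlapped in clusters 2, 3 and 5, and narrowly in cluster 1. As shares of cells with an Esr1 UMI, they overlapped in clusters 6 and 0 too. In cluster 6 the shares were 13.8% (6.53 to 24.7) with Sult1e1 and 25.5% (13.9 to 40.3) without. In cluster 0 they were 32.1% (20.3 to 46.0) and 40.4% (35.4 to 45.4). In cluster 6, 5 cells held 58.7% of the transgenic Esr1 UMIs. The WT cells with Sult1e1 went the other way, with Esr1 at 211 UPM (169 to 259) against 116 UPM (112 to 121), but they were only 14 cells and deeper, at a median of 31080 against 22514 UMIs. Akr1c18-positive cells of the Dpp4-like cluster had more Esr1 than the negative ones: 244 UPM (214 to 277) against 155 UPM (145 to 165) in WT, and 196 UPM (149 to 254) against 111 UPM (102 to 120) in transgenic. The positive cells were again deeper, at medians of 28013.5 against 24993.5 and 28040 against 21886 UMIs. No cell with Akr1c18 had a Prlr UMI in either library, but among the Dpp4-like cells without Akr1c18 only 2.31% in WT and 4.02% in transgenic had one, and 35 and 11 positive cells are too few to read an absence from.

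For scale, 8748 genes stood at 10 UPM or more in progenitors of a library, with a median log2 ratio of 0.087. By any amount, 67% of them were higher in transgenic and 33% lower. Of the 8748, 0.823% were higher by 2-fold or more in transgenic and 0.789% lower. Sult1e1, Esr1 and Prlr were among the 8748, and Akr1c18 and Pgr were too low to enter. Sult1e1 was past 2-fold higher, with the 8th highest ratio, and Prlr past 2-fold lower, with the 38th lowest. Esr1 did not reach 2-fold and ranked 129th from the lowest. The ranks include sex-linked genes: the Y-linked Uty, Eif2s3y, Kdm5d and Ddx3y had higher ratios than Sult1e1, and Xist and Tsix lower ones than Prlr. Since such ratios were among the reasons for choosing the genes, the ranks only place them.

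The corticosteroid receptors differed less than Esr1. Nr3c2, the mineralocorticoid receptor, went from 93.1 to 85.0 UPM (log2 −0.13), and Nr3c1, the glucocorticoid receptor, from 250 to 243 UPM (−0.042). Esr2, the second oestrogen receptor, had 4 UMIs in each library. Of the 16 genes for sulfate conjugation and its reversal, 9 passed the 10 UPM floor, with a median of 0.11, near that of all genes. Of the 9, 5 were higher, Sult1e1 included, and 4 lower, where 67% of all genes were higher. Beside Sult1e1, only Papss2, which makes the activated sulfate that sulfotransferases use, exceeded 0.60, at 92.1 and 141 UPM (0.61, 0.54 to 0.69). Papss2 was highest in cluster 6 of both libraries, which made up 3.73% of WT and 8.24% of transgenic progenitors. The part of this in its ratio was not tested. The phenol sulfotransferase gene Sult1a1 was level at 32.2 and 31.7 UPM, and Sult5a1 went from 163 to 121 UPM (−0.43).

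Of the genes of steroid synthesis and interconversion, 12 passed the floor and 11 were higher in transgenic, where 67% of all genes were, and their median was 0.14 against 0.087 over all genes. Only 6 had a counting interval above 0, and the share of all genes with such an interval was not counted. Hsd11b1, which regenerates active glucocorticoid, was highest at 68.1 and 121 UPM (0.83), followed by Hsd17b7 (0.66), Hsd17b12 (0.53) and Fdxr (0.27). Hsd11b1 is also among the leading genes of cluster 3, and that cluster was 150 of 1127 WT and 265 of 1360 transgenic progenitors. Whether the size of the cluster bears on the Hsd11b1 ratio was not tested. Aromatase (Cyp19a1), Cyp11a1, Cyp17a1 and Srd5a2 had no UMI in progenitors. The other Akr1c genes were as sparse as Akr1c18 or sparser, with 57 and 28 UMIs of Akr1c14, 46 and 24 of Akr1c19 and 18 and 15 of Akr1c13.

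Of the 11 genes of prolactin and growth hormone signalling, Prlr included, all passed the floor and 9 were lower in transgenic (8 of the 10 others without Prlr), with a median of −0.27, where 33% of all genes were lower. The counting interval lay below 0 for 7 of the 11. The share of all genes with an interval clear of 0 was not counted, for this list or those that follow. Cish, a feedback inhibitor induced by STAT5, went from 19.8 to 8.99 UPM (−1.14, −1.36 to −0.91), Jak2 from 230 to 164 UPM (−0.49), and Socs1, another feedback inhibitor, from 60.6 to 46.0 UPM (−0.40). In both libraries Cish, Jak2 and Socs1 were highest in cluster 2, which made up 23.3% of WT but 14.3% of transgenic progenitors. Whether the size of that cluster bears on their ratios was not tested. Ghr, the growth hormone receptor, was level at 359 and 352 UPM (−0.028). Oestrogen-responsive genes had a median of −0.027, with 3 of the 6 that passed lower, led by Cxcl12, a chemokine (198 to 114 UPM, −0.79), and Igfbp4 (644 to 523 UPM, −0.30). Androgen and glucocorticoid responsive genes had a median of −0.39, with 7 of 8 lower, all 7 with an interval below 0. Zbtb16 went from 931 to 288 UPM (−1.69), Per1, also a clock gene, from 42.8 to 19.2 UPM (−1.16), Errfi1 from 772 to 548 UPM (−0.49) and Tsc22d3 from 45.5 to 33.5 UPM (−0.44). Coregulators and chaperones had a median of 0.11, near that of all genes. Of the 16, 13 were higher, where 67% of all genes were, and 10 had an interval above 0. The chaperone gene Hsp90aa1 led them (771 to 1093 UPM, 0.50). Membrane steroid receptors had a median of 0.23 with 3 of 4 higher, Paqr8 among them (0.35). Aldo-keto reductases had 0.14 with 4 of 4 higher, Akr1b8 most (0.27). Oestrogen oxidation and glucuronidation genes had 0.15 with 1 of 2 higher, again beside 67% of all genes. These are ratios of 1 library to another, and sex moved with all of them.

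**Figure D5:**
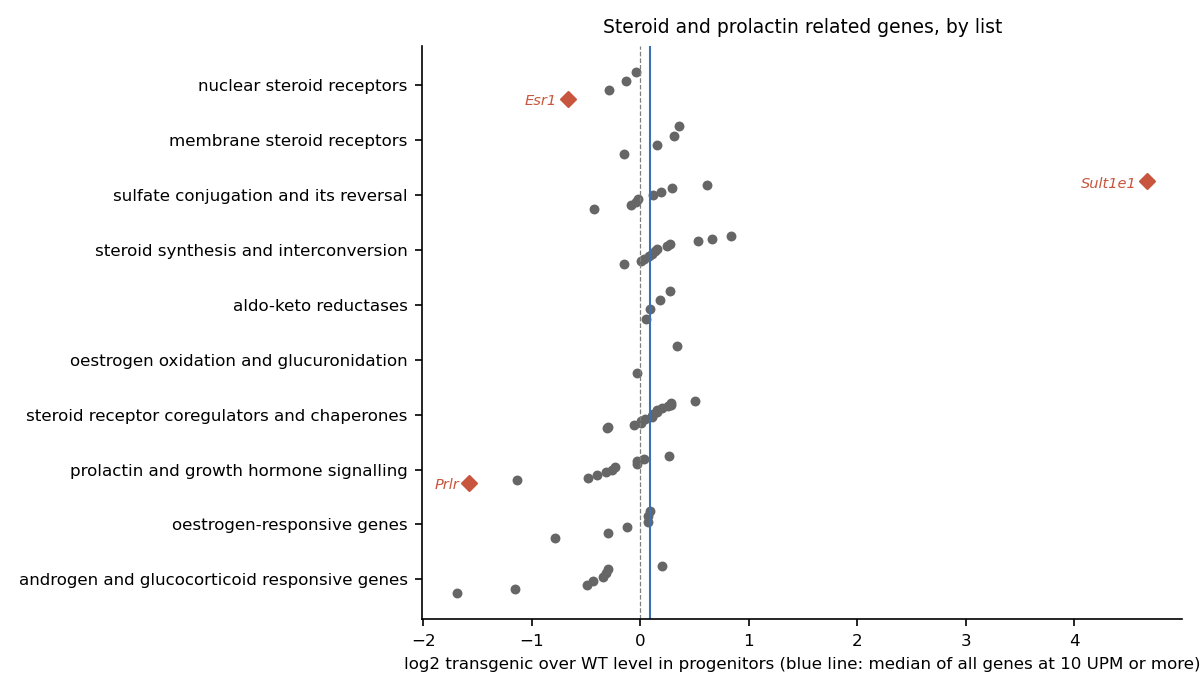
Log2 ratio of transgenic to WT level in progenitors (x axis) for each gene at 10 UPM or more, by list (y axis); each point is 1 gene, diamonds are Sult1e1, Esr1 and Prlr, and the solid line is the median of all genes, 0.087. Sult1e1 stands far to the right of the other sulfate genes, and most prolactin and androgen or glucocorticoid responsive genes lie left of 0.

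Genes whose levels most resembled each member were taken over the 11 profiles of a progenitor cluster in a library with 50 or more cells, from 4487 candidates, by Pearson correlation of log2(UPM + 1). For Sult1e1 they were Adarb1 (0.92), Sparc (0.89) and Hspa5 (0.88), and for Akr1c18 they were Efna5 (0.96), Timp2 (0.96) and Cd55 (0.94). For Esr1 they were Rgs6 (0.93), Adcy2 (0.92) and Opcml (0.92), and for Prlr they were Nlgn1 (0.93) and Foxp2 (0.92). The 11 profiles share 2 libraries, so these values describe likeness and nothing more. Cd55 and Opcml are leading genes of the Dpp4-like cluster, and Nlgn1 is a leading gene of the mesothelial cells.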

How the data were processed

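The authors deposited raw UMI counts of each gene for every barcode of 2 droplet libraries. Per the submitters' processing notes, Cell Ranger 7.0.0 and build mm10 were used; the matrix header names Cell Ranger 4, and no source used here says which of them made the files. Symbols were summed, which left 32246 from 32286 features, and the 5 members each matched 1 feature, whose identifier was found in GENCODE M21.

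Barcodes were filtered as stated above, and Scrublet in scanpy 1.11.5 (anndata 0.12.19) removed 1 WT and 4 transgenic doublets. For clustering, each cell was scaled to 10000 UMIs and its values put on a log scale. Leiden clustering (leidenalg 0.10.2, resolution 0.5, seed 1) used 2000 variable genes, 30 principal components and 15 neighbours, with no correction between libraries. A first clustering on scaled genes was set aside after its clusters were seen and is kept as an alternative. A class needed 50% and at least 3 of its markers on, that is, at 25% of their highest level and 20 UPM. A state needed 3 markers at 1.5-fold the other progenitors, and where 2 lists were met the one with more markers gave the name. Top genes had to occur in 10% of a cluster's cells, a rule added after the clusters were seen.

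UMIs of a group were summed and divided by its total. Intervals are exact Poisson for levels, Clopper-Pearson for shares (3 cells of the total where none was positive) and conditional binomial for ratios, computed in scipy 1.17.1 and tested on simulated counts. PCR copies are merged by UMI, but UMIs of 1 cell are not independent, so intervals of concentrated genes are too narrow. A count of 0 was set to 3 UMIs for a fold. In WT progenitors this floor is 0.117 UPM, in transgenic ones 0.114 UPM, from libraries of 44145257 and 43084906 UMIs.

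The members, gene lists, marker lists and alternatives were chosen with earlier results of these data known. Named genes are the members, up to 4 per list with the largest ratio at 10 UPM or more, and the 3 most alike per member; some genes that this takes in are not reported here. Nr3c1, Nr3c2, Esr2, Ghr, Sult1a1, genes at 0 and the Akr1c genes were named for their role, after values were seen. Sts was not analysed here. Promoters are from RefSeq (GRCm38.p6), where all 5 members were found; no protein sequence was used here.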

Additional observations from a re-analysis of the deposited data

Results flagged for a closer look

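Prlr moved in opposite directions in 2 progenitor states. Its log2 ratio of transgenic to WT was 1.94 in the Dpp4-like cluster, where it was −1.58 over all progenitors and −1.73 in the F3-like cluster 5. The counting intervals lay on opposite sides of 0, but with 1 library per genotype the difference between states was not tested, and 5 transgenic cells held 83.3% of the Dpp4-like UMIs.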

How the results depend on the processing

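Of 125 values of the ratios, shares and counts of genes under other settings, 112 stayed within the counting interval of the reported value, 13 moved and 0 reversed. Several settings left the progenitors almost the same, so values over all progenitors could hardly move under them. With doublets kept there were 1127 WT and 1360 transgenic progenitors, and at resolution 1.0 there were 1127 and 1359. Thinning to 5000 UMIs gave log2 ratios of 5.16 for Sult1e1 and −2.84 for Akr1c18, and differences in the share of cells (transgenic minus WT) of 13.2 percentage points for Sult1e1, −0.966 for Akr1c18, −8.44 for Esr1, −3.94 for Prlr and 0 for Pgr; shares fall by construction, as fewer UMIs are left per cell, and the cause of the moved ratios was not tested. Weighting progenitor clusters equally gave 5.86 for Sult1e1. Without the 5 cells highest in each gene the ratios were 7.83 for Sult1e1 and −2.79 for Akr1c18. With each library clustered on its own, Prlr was at −0.95 and its share differed by −3.97 percentage points. With no floor beyond 20 UMIs over both libraries, 5.62% of 15119 genes differed by 2-fold or more, 430 higher and 419 lower. Of 70 values for levels in 1 cluster over the others, 42 stayed, 28 moved and 0 reversed: they ran from 2.08 to 2.32 for transgenic Sult1e1 in cluster 6, from 2.04 to 4.73 for WT Prlr and 2.22 to 4.21 for transgenic Prlr in cluster 5, from 0.54 to 0.85 and 0.45 to 0.96 for WT and transgenic Esr1 in cluster 1, and from 1.08 to 6.95 and 1.65 to 6.01 for Akr1c18 there, lowest where the Dpp4-like cells were split into smaller clusters. The alternatives of clustering without the 5 members, of scaled genes and of top genes at any share of cells were chosen after seeing the data. No paired analysis was possible because each genotype has 1 library. Pgr (2 and 5 UMIs) and WT Sult1e1 (92 UMIs in 14 cells) rest on few counts, and with 1 library per genotype no setting shows how mice vary.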
